A study of Mus musculus with 6 samples.

Results

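The 9 genes described here are 7 of the HoxA cluster (Hoxa3, Hoxa5, Hoxa6, Hoxa7, Hoxa9, Hoxa10 and Hoxa11) and the cofactor genes Meis1 and Pbx3, taken by symbol from the 23337 genes of the count table. They were followed in C57BL6 mouse bone marrow granulocyte-monocyte progenitors with ER-HOXA9, a fusion of estrogen receptor and HOXA9 whose activity depends on estrogen. Polyadenylated RNA was sequenced from 3 groups of 2 cultures each: Drug treated Day 3, given 5 µM cerulenin, which blocks fatty acid synthase, 5 µM of the purine analogue mercaptopurine, and 200 nM GSK-LSD1, which blocks the histone demethylase LSD1, Vehicle Day 3, given DMSO, and Non-treated Day 0. All cultures, the controls included, carried ER-HOXA9 and grew with stem cell factor and 0.5 µM beta-estradiol, so no group lacked the fusion or its ligand. The sources used here give neither the promoter that drives the fusion, nor the species of its parts, nor whether the cells are 1 clone. The table does not separate fusion reads from those of endogenous Hoxa9. The labels do not say that replicates came from separate animals, so p-values measure the spread between these samples, which may be technical. The libraries held 11305666 to 16948697 counts, of which the ribosomal RNA gene Rn45s took 15.7 and 15.9% with the drugs, 16.1 and 14.6% with vehicle and 20.4 and 24.6% at day 0. This share thus moved with the comparisons with day 0 for Meis1 and Tgif1, and its part in them was not tested beyond leaving Rn45s out of the fit, after which the calls of both stood.

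Hox genes encode homeodomain transcription factors that lie in clusters, in the order in which they are used along the body axis. In blood, genes in the middle of the HoxA cluster are active in stem and early progenitor cells and are normally switched off as myeloid cells mature. HOXA9 binds DNA together with TALE homeodomain cofactors of the PBX and MEIS families. Sustained HOXA9 activity, with MEIS1 and PBX3 as partners, is a hallmark of many acute myeloid leukaemias and holds progenitors in an undifferentiated, dividing state.

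The annotated starts of Hoxa9 and of its nearest protein-coding neighbours on either side are shown because Hoxa9 was counted in every library and these neighbours almost not at all, and that of Meis1 because it is the cofactor whose level moved. Each RefSeq window holds 250 bases before and 50 after the start, 5′ to 3′ on the minus strand of GRCm38.p6, with CpG dinucleotides in capitals.
Hoxa9 (chr6:52227321-52227620): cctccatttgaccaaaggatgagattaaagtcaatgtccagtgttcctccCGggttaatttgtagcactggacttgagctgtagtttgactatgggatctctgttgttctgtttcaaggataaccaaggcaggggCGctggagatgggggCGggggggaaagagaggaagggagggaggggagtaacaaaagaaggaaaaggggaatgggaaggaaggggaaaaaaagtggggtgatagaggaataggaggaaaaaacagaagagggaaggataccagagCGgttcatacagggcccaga
Hoxa7 (chr6:52218524-52218823): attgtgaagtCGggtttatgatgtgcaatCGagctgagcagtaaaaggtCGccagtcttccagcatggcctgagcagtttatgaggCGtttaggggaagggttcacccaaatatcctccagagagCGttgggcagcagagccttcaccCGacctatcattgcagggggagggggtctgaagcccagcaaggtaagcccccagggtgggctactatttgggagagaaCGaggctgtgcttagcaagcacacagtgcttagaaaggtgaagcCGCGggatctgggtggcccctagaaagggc
Hoxa10 (chr6:52240805-52241104): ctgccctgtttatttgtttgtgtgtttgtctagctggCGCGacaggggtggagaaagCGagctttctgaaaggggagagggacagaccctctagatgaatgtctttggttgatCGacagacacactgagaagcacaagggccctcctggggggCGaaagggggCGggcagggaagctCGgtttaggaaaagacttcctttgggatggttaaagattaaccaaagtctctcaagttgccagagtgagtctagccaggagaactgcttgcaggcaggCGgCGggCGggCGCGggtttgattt
Meis1 (chr11:19018920-19019219): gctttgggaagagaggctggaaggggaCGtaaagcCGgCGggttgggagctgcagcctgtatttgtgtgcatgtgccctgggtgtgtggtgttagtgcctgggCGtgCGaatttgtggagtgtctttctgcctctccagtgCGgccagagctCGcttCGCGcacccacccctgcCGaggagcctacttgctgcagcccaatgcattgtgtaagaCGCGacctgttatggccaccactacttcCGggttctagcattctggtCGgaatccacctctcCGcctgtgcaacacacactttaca

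These starts are the upper ends of the 4 genes as the deposited table gives them. The Hoxa9 window holds 4 CpG, and 31.4% of 32851 RefSeq promoter windows of the same length hold fewer. The Hoxa7 window holds 9, the Hoxa10 window 12 and the Meis1 window 15. Windows were found for 8 of the 9 members, and Hoxa10 has a second one. That second Hoxa10 start, not shown, lies nearer to Hoxa9, and its window holds 21 CpG. The HOX-PBX site TGATTNAT, searched on both strands, was in none of these 9 windows and in 3.22% of all windows. The MEIS half-site TGACAG, also searched on both strands, was in the Hoxa3 window only, and in 19.2% of all windows. The 2 motifs were counted separately, and a missing match says only that these letters are not in the window. The promoter of the fusion is not given, so how many Hoxa9 reads began at the window shown is not known. Whether the windows bear on the counts was not tested.

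Across the HoxA cluster, reads were counted for Hoxa9 and almost nowhere else. Hoxa9 had 2402 and 2997 counts in the drug-treated libraries, 3640 and 3292 with vehicle and 4876 and 3447 at day 0. It is annotated on chromosome 6 from 52224054 to 52227370 (mm10, minus strand), with 2 exons that share no base with another gene of the table. Hoxa7, which starts 8.80 kb to the 3′ side, had 0 and 0 counts with the drugs, 0 and 1 with vehicle and 1 and 2 at day 0. Hoxa3 had 1 count, in vehicle replicate 2, and Hoxa5 had 1, in day 0 replicate 1. Hoxa6, Hoxa10 and Hoxa11 had 0 counts in all 6 libraries. None of these 6 genes had enough counts to be tested, and 3 counts correspond to 0.179 to 0.251 CPM (counts scaled to a common, TMM-adjusted library total) in these libraries.

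Over all 6 libraries, Hoxa9 had 20654 counts and the other 6 HoxA members had 6 together. The Hoxa9 count does not separate fusion from endogenous reads, so the ratios below are not those of the endogenous gene alone. Per kb of annotated length, the level of Hoxa9 was at least 9521 times that of Hoxa10, at least 6800 times that of Hoxa11 and at least 2118 times that of Hoxa6, against a floor of 3 counts over the 6 libraries. The ratio to Hoxa7 was 4434 (95% counting interval 1731 to 16275). For Hoxa3 it was 23118, with an interval of 4149 to 913139, and for Hoxa5 17063, with an interval of 3062 to 673992. Hoxa3 shares exon bases with 2700086A05Rik and Hoxa11 with Hoxa11as, so any reads there could not have been told apart without strand.

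Further HoxA transcripts were at 0 as well. Hoxa2, Hoxa4 and Hoxa13, the microRNA gene Mir196b between Hoxa9 and Hoxa10, and the non-coding Mira, 2700086A05Rik and Hoxa11as had 0 counts in every library, which for Mir196b is a statement about polyadenylated RNA only. The tested genes that flank the cluster, Skap2 (a signalling adaptor) and Hibadh (an enzyme of valine breakdown), had 747 to 1203 and 665 to 1020 counts. Their levels were 67.9 ± 0.681 CPM with the drugs, 61.7 ± 1.01 with vehicle and 70.7 ± 1.76 at day 0 for Skap2 (SD, n = 2 per group). Neither was called in any of the 3 comparisons. Of the 28 genes of the HoxB, HoxC and HoxD clusters, 23 were at 0 and 5 had 1 count in 1 library (Hoxb4, Hoxb7, Hoxc12, Hoxc13 and Hoxd11). Hoxa9 was therefore the only 1 of 39 Hox genes with more than 2 counts in any library.

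**Figure D1:**
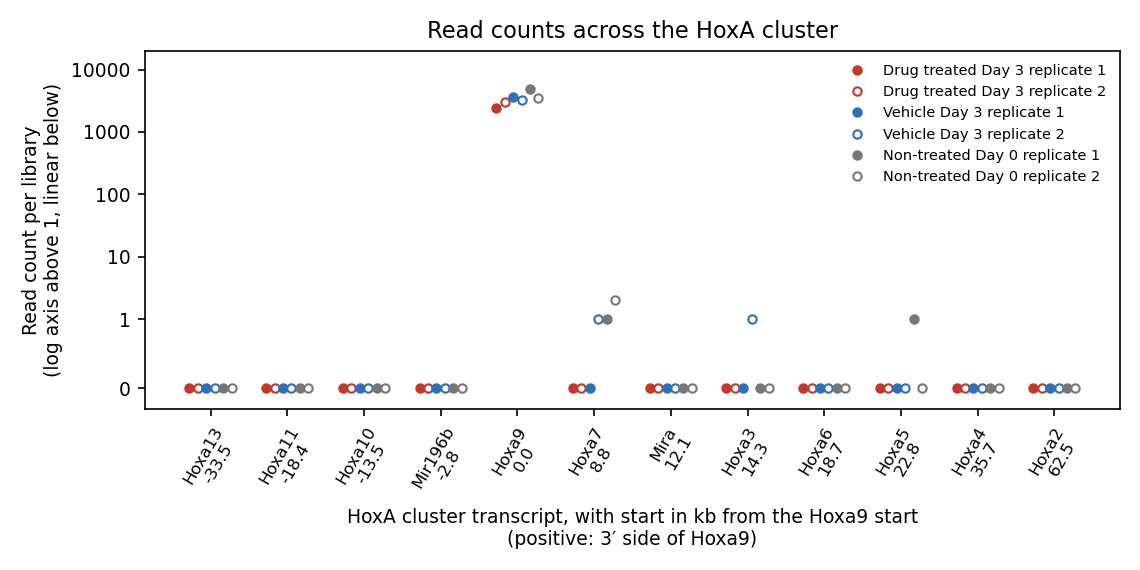
Read counts in each of the 6 libraries (y axis, log scale above 1 and linear below) for Hox genes, Mira and Mir196b of the HoxA cluster, ordered by the distance of their start from that of Hoxa9 in kb. Hoxa9 lies between 2402 and 4876 in the 6 libraries, and every other transcript drawn lies between 0 and 2.

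The drug combination was set against vehicle on the same day to ask what the treatment did to these transcripts. Hoxa9 was lower with the drugs. It stood at 192.4 and 193.4 CPM with the drugs, against 287.7 and 275.2 CPM with vehicle, so that the groups did not overlap. The log2 change was -0.55 ± 0.0696 (SE, edgeR quasi-likelihood test, adjusted p = 6.44e-05), a fall of the level by 31.5%. Against day 0, at 291.7 and 286.5 CPM, it fell by 0.58 ± 0.0695 on the log2 scale (adjusted p = 2.80e-05). The drug-treated libraries serve in both of these comparisons. Culture with vehicle left Hoxa9 uncalled against day 0 (log2 change -0.04 ± 0.0689, adjusted p = 0.758), and those groups overlapped. By mean CPM per kb over the 6 libraries, 97.2% of the 15268 genes with a count lay below Hoxa9, fusion and endogenous reads together.

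Of the 9 members, 3 had enough counts to be tested, and in drug versus vehicle 1 of these, Hoxa9, was lower and 0 were higher. Over all 11283 genes tested, 31.9% were called, 13.8% as lower and 18.1% as higher, so 1 call among 3 is near the background. Hoxa9 was lower with the drugs under all 14 alternative settings, with log2 changes from -0.59 to -0.51 and adjusted p from 1.14e-10 to 0.00439.

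Esr1, the mouse estrogen receptor alpha gene, was read beside Hoxa9 because the fusion carries an estrogen receptor part. It had 1360 and 1753 counts with the drugs, 1999 and 1642 with vehicle and 2640 and 1883 at day 0. At 108.9 and 113.1 CPM with the drugs, it lay below the 158.0 and 137.3 CPM with vehicle. Its log2 change from vehicle was -0.41 ± 0.0775 (adjusted p = 0.00144), and from day 0, at 157.9 and 156.5 CPM, it was -0.50 ± 0.077 (adjusted p = 2.26e-04). Vehicle against day 0 was not called (-0.09 ± 0.0764, adjusted p = 0.484). Both genes were thus called lower with the drugs in both comparisons and uncalled in vehicle against day 0. How much of either count comes from the fusion was not tested.

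Within a library, the ratio of Hoxa9 to Esr1 counts does not depend on scaling. It was 1.77 and 1.71 with the drugs, 1.82 and 2.00 with vehicle and 1.85 and 1.83 at day 0. The drug-treated values were the lowest, with a mean of 1.74 ± 0.0400, against 1.91 ± 0.13 with vehicle (SD, n = 2 each), where the 95% counting interval of a single library spans 1.65 to 1.89 in drug replicate 1. With 2 libraries against 2, an exact two-sided permutation test cannot go below p = 0.333, which is the value here.

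**Figure D2:**
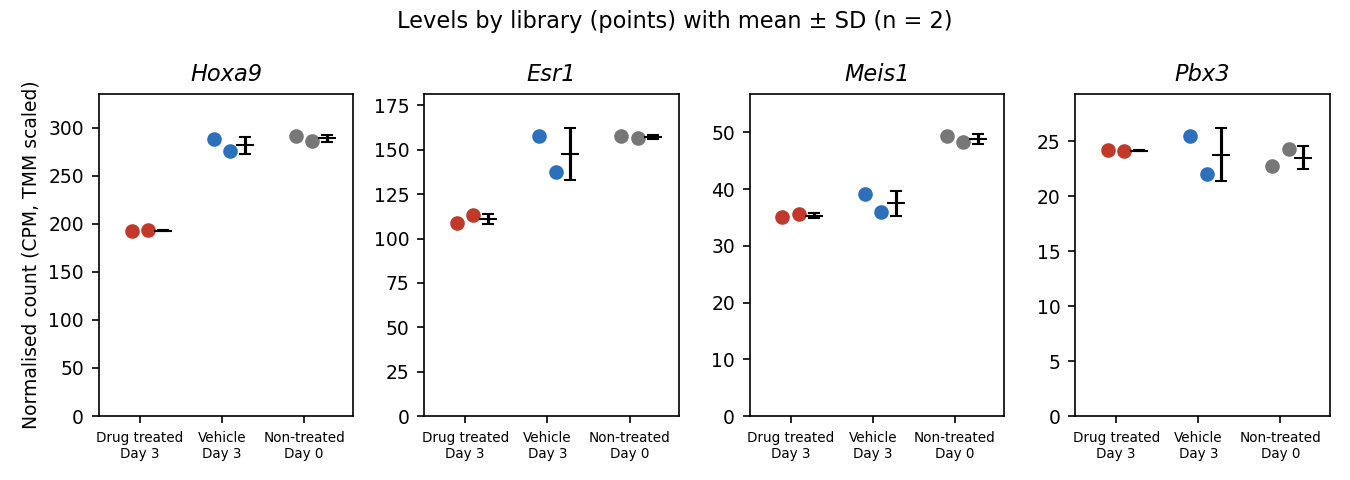
Normalised counts (CPM, y axis from 0) of Hoxa9, Esr1, Meis1 and Pbx3 in each library of the drug-treated, vehicle and day 0 groups (points), with the mean and SD of the 2 libraries beside them. Hoxa9 averages 192.9 CPM with the drugs, 281.5 with vehicle and 289.1 at day 0, while Meis1 is at 48.8 CPM at day 0 and at 35.3 and 37.5 CPM with drugs and vehicle.

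In these bulk samples fewer cells of a type and less RNA per cell cannot be told apart. The labelled cell type was checked against 12 progenitor markers, all of which were detected, with summed levels of 11909 to 12482 CPM with the drugs, 9771 to 10077 with vehicle and 8746 to 9065 at day 0. Of these, 5 rose and 2 fell against vehicle, where 18.1% of all tested genes were called higher and 13.8% lower. Mpo, which carries most of the sum, averaged 6735 CPM with the drugs, 4647 with vehicle and 3761 at day 0. The 2 that fell were Ctsg, at 738.3 CPM with the drugs and 955.3 with vehicle, and Cebpa, at 137.0 CPM with the drugs and 177.3 with vehicle. The 8 monocyte and macrophage markers summed to 1123 and 1209 CPM with the drugs, 579.6 and 537.8 with vehicle and 838.7 and 875.0 at day 0. Of them, 7 rose against vehicle and C1qa had 0 counts in all libraries. Ccr2 carried most of this sum and was not called against day 0, and without it the sums were 354.7 and 381.4 CPM with the drugs, 36.7 and 35.1 with vehicle and 45.2 and 40.3 at day 0. The 8 mature neutrophil markers summed to 7.61 and 7.87 CPM with the drugs, at most 4.11 with vehicle and at most 1.99 at day 0, and Camp and Retnlg were at 0. Mmp9 made up the excess over vehicle. Without it the sums were 2.00 and 3.10 CPM with the drugs, 3.95 and 2.84 with vehicle and 1.14 and 1.83 at day 0. Drug and vehicle then overlapped, while both still lay above day 0. The 6 mast cell and basophil markers summed to 1126 to 1212 CPM with the drugs, 479.7 to 496.4 with vehicle and 903.4 to 1089 at day 0, nearly all of it Cpa3, and Fcer1a was at 0. The sums were 14.6 to 18.8 CPM with the drugs, 17.0 to 21.7 with vehicle and 34.1 to 46.0 at day 0 for 8 erythroid and megakaryocyte markers, with Hba-a1 at 0. For 6 lymphoid markers they were 40.6 to 41.4, 66.8 to 81.7 and 61.7 to 71.4 CPM in the same order of groups, mostly Ebf1, with Cd3e at 0. For 5 stromal markers they were 242.1 to 243.2, 170.8 to 176.1 and 216.6 to 226.5 CPM, nearly all Pecam1, with Cdh5 at 0. Single markers did not all follow these sums against vehicle. Cpa3 was called higher but Mcpt8 lower (25.6 CPM with vehicle and 20.8 with the drugs). Ebf1 was called lower but Cd79a higher (1.98 CPM with vehicle and 3.58 with the drugs). Of the erythroid and megakaryocyte list, Gp9 was called lower (3.47 CPM with vehicle and 0.579 with the drugs), while Itga2b was not called. The part of these shifts in the change of Hoxa9 was not tested.

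Meis1, whose product binds DNA with HOXA9 and PBX proteins, was lower at day 3 in both groups than at day 0. It stood at 35.0 and 35.6 CPM with the drugs, 39.1 and 36.0 CPM with vehicle and 49.4 and 48.2 CPM at day 0. Both day 3 groups lay below day 0 without overlap, and the drug values also lay just below those with vehicle. Vehicle against day 0 gave a log2 change of -0.38 ± 0.0806 (adjusted p = 0.0134), the only member called there, where 7.74% of all tested genes were called, 3.99% as lower and 3.75% as higher. That call was lost with DESeq2 (adjusted p = 0.0635), with library totals (0.0656), without day 0 replicate 1 (0.0621) and without vehicle replicate 2 (0.0702). Drug against day 0 gave -0.47 ± 0.0801 (adjusted p = 5.27e-04), a call that stood under all 14 alternatives, with log2 changes from -0.49 to -0.38. Drug against vehicle was not called (-0.09 ± 0.083, adjusted p = 0.462). Meis1 is annotated on chromosome 11 from 18880428 to 19018969, and its span overlaps no other gene of the table.

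Pbx3, the PBX family partner most often linked to HOXA9 in leukaemia, was called in none of the 3 comparisons. It stood at 24.2 and 24.1 CPM with the drugs, 25.5 and 22.1 CPM with vehicle and 22.8 and 24.3 CPM at day 0. All 3 groups overlapped. The log2 change was 0.02 ± 0.104 for drug against vehicle (adjusted p = 0.904), 0.02 ± 0.104 for vehicle against day 0 (adjusted p = 0.922) and 0.04 ± 0.103 for drug against day 0 (adjusted p = 0.767). Pbx3 is annotated on chromosome 2 from 34171909 to 34372036 and has 9 exons. In drug versus day 0, Hoxa9 and Meis1 were the 2 members called, both lower, where 43.9% of all tested genes were called, 21.2% as lower and 22.7% as higher.

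Per kb of length, Hoxa9 was the highest of the members in every library, at 84.7 and 85.1 CPM per kb with the drugs, 126.6 and 121.1 with vehicle and 128.4 and 126.1 at day 0. Its level again includes any reads of the fusion. Meis1 followed at 10.2 and 10.4 CPM per kb with the drugs, 11.3 and 10.4 with vehicle and 14.4 and 14.0 at day 0. Pbx3 lay at 10.1 and 10.1 CPM per kb with the drugs, 10.7 and 9.22 with vehicle and 9.53 and 10.1 at day 0. Meis1 lay above Pbx3 without overlap at day 0 and, narrowly, with the drugs (10.3 ± 0.128 and 10.1 ± 0.0156 CPM per kb, SD, n = 2), while with vehicle the ranges overlapped, as they did over all 6 libraries.

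The count ratio of Hoxa9 to Meis1 was 5.50 and 5.43 with the drugs, 7.37 and 7.66 with vehicle and 5.90 and 5.94 at day 0. It was thus highest with vehicle, where Meis1 was below its day 0 level and Hoxa9 was not called against day 0. The ratio of Hoxa9 to Pbx3 was 7.95 and 8.01 with the drugs, 11.3 and 12.5 with vehicle and 12.8 and 11.8 at day 0. Drug-treated libraries were the lowest for both ratios, with no overlap, and the exact permutation p of 0.333 is the smallest that 2 against 2 allows.

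**Figure D3:**
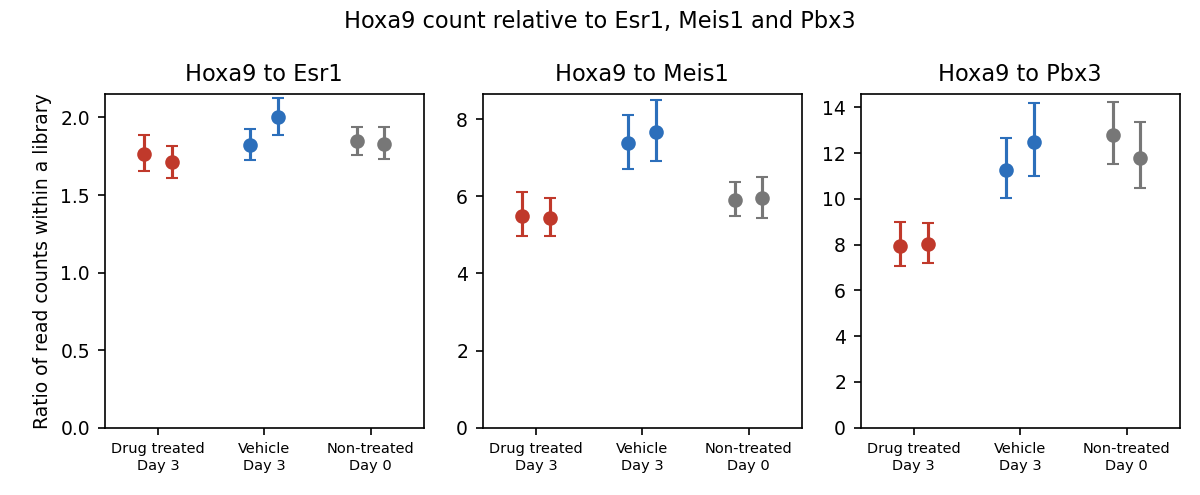
Ratio of the Hoxa9 read count to that of Esr1, Meis1 and Pbx3 within each library (points, y axis from 0), with exact 95% binomial intervals that cover counting error only, for the drug-treated, vehicle and day 0 groups. The ratio to Esr1 runs from 1.71 to 2.00, and the ratio to Pbx3 is 7.95 and 8.01 with the drugs and between 11.3 and 12.8 in the other 4 libraries.

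The rest of the TALE family was uneven, listed here together with Pbxip1, which encodes a binder of PBX proteins without a homeodomain. Of the 10 listed genes besides Meis1 and Pbx3, 6 were tested, and in drug versus vehicle 1 was higher and 0 lower (16.7% called, against 31.9% of all tested genes), with a median log2 change of -0.04 where that of all tested genes was 0.00075. The riser was Pbxip1, at 36.8 and 34.5 CPM with the drugs, against 23.6 and 25.3 CPM with vehicle (log2 change 0.54 ± 0.11, adjusted p = 0.0024). The other 5, all TALE genes, were not called there. Pbxip1 was also higher with vehicle than at day 0, by 0.51 ± 0.119 (adjusted p = 0.0216), a call lost without vehicle replicate 1 (0.0532) or vehicle replicate 2 (0.0632).

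Tgif1, a TALE repressor that competes for MEIS-like sites, had 46.4 and 48.7 CPM with the drugs, 47.5 and 45.1 CPM with vehicle and 69.1 and 53.9 CPM at day 0. It was lower with vehicle than at day 0 by its log2 change of -0.42 ± 0.105 (adjusted p = 0.0307). That call was lost under 9 of 14 alternatives, and without day 0 replicate 1 the change was -0.22 (adjusted p = 0.271). Pknox1, which encodes the PBX partner PREP1, and Pbx2, another PBX gene, were not called in drug versus vehicle (log2 change -0.20 ± 0.0807, adjusted p = 0.0822, and -0.12 ± 0.0836, adjusted p = 0.295). Nor were Tgif2 (-0.19 ± 0.133) and Pbx4 (0.25 ± 0.223). Meis3 had at most 7 counts in a library, Meis2 at most 3, and Pknox2 had 0 in all libraries. Against day 0, the drug-treated cells had 2 of the 6 genes higher and 2 lower, where 43.9% of all tested genes were called. Pbxip1 rose by 1.05 ± 0.113 (adjusted p = 1.15e-05), and this call stood under all alternatives. Pbx4 rose by 0.74 ± 0.231 (adjusted p = 0.0202), but the change was 1.18 without day 0 replicate 1 and 0.46 without day 0 replicate 2 (adjusted p = 0.11), and the adjusted p was 0.142 without drug replicate 1 and 0.0673 with DESeq2. The log2 change of Tgif1 was -0.38 ± 0.104 (adjusted p = 0.0104), but it was -0.18 without day 0 replicate 1 (adjusted p = 0.14), and the adjusted p was 0.0876 without drug replicate 1 and 0.103 with library totals. That of Pknox1 was -0.24 ± 0.0794 (adjusted p = 0.0266), a call lost under 6 of 14 alternatives. Among these were DESeq2 (0.146), library totals (0.215) and the replicate block (0.0525). Meis1 was thus the only MEIS gene with enough counts to be tested.

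**Figure D4:**
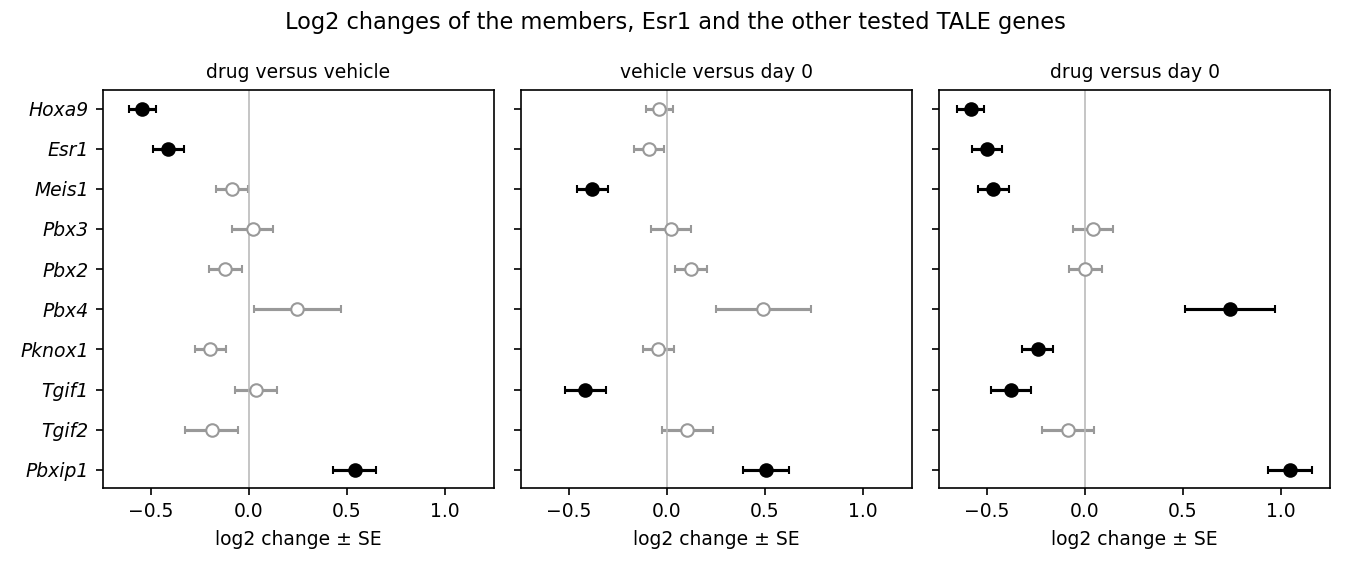
Log2 changes with SE (x axis) of Hoxa9, Esr1, Meis1, Pbx3 and the 6 other tested genes of the TALE list, Pbxip1 among them, in drug versus vehicle, vehicle versus day 0 and drug versus day 0. Filled points passed an adjusted p of 0.05: Hoxa9 and Esr1 are called lower in the comparisons with drug-treated cells, and Meis1 in the comparisons with day 0.

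Regulators that set HoxA transcription in other systems moved both ways. Of 20 tested activators, which include the MLL-menin complex, DOT1L and elongation factors, 3 rose and 3 fell with the drugs against vehicle, a share of 30% called, near the 31.9% of all tested genes. Their median log2 change was -0.01. The rises were Mllt6, a partner gene of MLL fusions (0.60 ± 0.0793, adjusted p = 8.35e-05), and Aff1 (0.33 ± 0.0817) and Aff4 (0.25 ± 0.0862), scaffolds of elongation complexes. The falls were Wdr5, a core subunit of MLL complexes (-0.38 ± 0.0694, adjusted p = 0.00122), Mllt1, the elongation factor ENL (-0.32 ± 0.0722), and Dot1l, the histone H3 lysine methyltransferase of elongating genes (-0.26 ± 0.0659). The calls of Mllt6 and Wdr5 stood under all alternatives. Those of the others did not. That of Aff4 was lost under 5 of 14, among them DESeq2 (adjusted p = 0.0746) and the replicate block (0.0848). Those of Aff1, Dot1l and Mllt1 were lost under 2, 2 and 1 alternatives, each with a library left out. Without vehicle replicate 2 the log2 change was 0.23 for Aff1 and 0.16 for Aff4.

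Of 16 tested repressors, the Polycomb genes and Ctcf, 2 rose and 2 fell against vehicle, 25% called against 31.9% of all tested genes, with a median of 0.02. Bmi1, a Polycomb repressive complex 1 subunit needed by stem cells, fell to 107.3 and 110.6 CPM with the drugs, against 158.0 and 149.6 CPM with vehicle (log2 change -0.50 ± 0.0678, adjusted p = 1.13e-04). Eed, the Polycomb repressive complex 2 subunit that reads H3 lysine methylation, rose to 69.1 and 73.6 CPM with the drugs, against 50.2 and 49.7 CPM with vehicle (0.52 ± 0.077, adjusted p = 2.33e-04). Ezh1, a catalytic subunit, rose by 0.57 ± 0.125 (adjusted p = 0.00382, and 0.0627 without drug replicate 1). Bap1, a histone H2A deubiquitinase, changed by -0.22 ± 0.0708 (adjusted p = 0.0308). That call was lost under 6 of 14 alternatives, with DESeq2 (0.118), with the replicate block (0.0583) and otherwise with a library left out. In vehicle against day 0, 1 activator and 0 repressors were called, 5% and 0% of those tested, against 7.74% of all tested genes. That activator was Kmt2a, listed under its older symbol Mll1, which encodes MLL itself (0.30 ± 0.0848, adjusted p = 0.0468). Its call was lost under 6 of 14 alternatives, among them the compared groups only (0.0916) and the replicate block (0.122). Without day 0 replicate 1 the log2 change was 0.21.

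Genes that other studies list as targets of HOXA9 or MEIS1 moved both ways as well. Of 20 tested, 9 rose and 3 fell with the drugs against vehicle, 60% called, where 18.1% of all tested genes were higher and 13.8% lower. The list was written with earlier results of these data known. An excess of calls in it can therefore follow from the choice, in any of the 3 comparisons. The median log2 change was 0.21. Mef2c, a MADS-box factor of progenitors, had 5.69 and 7.42 CPM with the drugs, against 2.45 and 1.92 CPM with vehicle (log2 change 1.59 ± 0.252, adjusted p = 3.89e-04). Camk2d, a calcium-dependent kinase, rose by 1.34 ± 0.167 and Dnajc10, an endoplasmic reticulum disulfide reductase, by 1.19 ± 0.0736. The 3 that fell were Mycn, a MYC family factor (-2.49 ± 0.196), Syk, a kinase downstream of immune receptors (-0.53 ± 0.0867), and Trib2, a pseudokinase that degrades C/EBP alpha (-0.45 ± 0.0786). Among the 12 calls, 9 stood under all alternatives, and those of Lmo2, Sox4 and Bcl2 did not. That of Lmo2 was lost under 8 of 14, among them DESeq2 (adjusted p = 0.13), library totals (0.0944), no filter (0.0702) and the replicate block (0.0795). That of Bcl2 was lost under 4, among them the replicate block (0.0637). That of Sox4 was lost under 3, each with a library left out. Without vehicle replicate 2 the log2 change was 0.17 for Sox4 and 0.16 for Bcl2.

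In vehicle against day 0, Meis1 was lower, a call lost under 4 of 14 alternatives, and Hoxa9 was not called. There, 4 of these 20 targets fell and 1 rose, with a median of -0.03. That is 25% called, against 7.74% of all tested genes. Trib2 fell to 83.9 CPM with vehicle, against 120.8 CPM at day 0 (-0.53 ± 0.0755, adjusted p = 0.00131). Whether the lower Meis1 had a part in this or any other change of these targets was not tested. Dnajc10 fell by 0.40 ± 0.0733 on the log2 scale, and Flt3, a progenitor receptor kinase, rose by 0.42 ± 0.0708. These 3 calls stood under all alternatives. Hlf, a stem cell factor, and Lmo2, a bridging factor of progenitors, changed by -0.38 ± 0.0895 and -0.30 ± 0.0656. The call of Hlf was lost under 5 of 14 alternatives, among them the compared groups only (adjusted p = 0.0741) and the replicate block (0.0755). That of Lmo2 was lost under 7, among them library totals (0.103), the compared groups only (0.0687) and the replicate block (0.0553).

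In drug versus day 0, 5 activators rose and 3 fell, 5 repressors rose and 2 fell, and 7 targets rose and 4 fell. These are 40%, 43.8% and 55% of each list, against 43.9% of all tested genes, with medians of -0.02, 0.18 and 0.17 and of -0.01 over all tested genes. Calls that stood under all alternatives were 3 of 8 for the activators, 3 of 7 for the repressors and 9 of 11 for the targets. Trib2, at 61.3 CPM with the drugs and 120.8 CPM at day 0, fell by 0.98 ± 0.0767 on the log2 scale (adjusted p = 6.38e-07). Flt3, at 526.8 CPM with the drugs and 211.0 CPM at day 0, rose by 1.32 ± 0.0711 (adjusted p = 1.88e-08). These 2 targets were called in the same direction in all 3 comparisons, which share samples pairwise. The change in drug versus day 0 is the sum of the other 2, so its direction follows from theirs and adds no support.

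**Figure D5:**
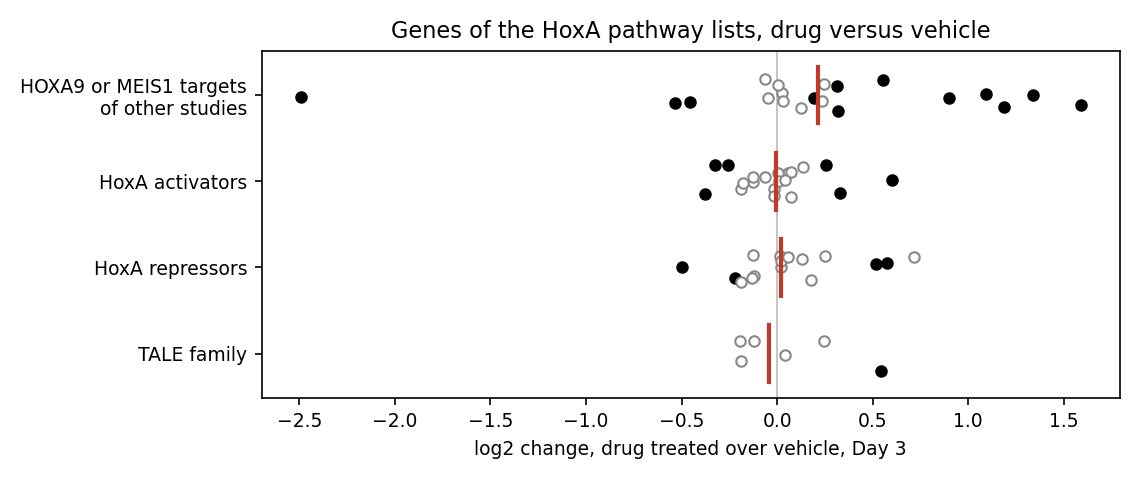
Log2 changes in drug versus vehicle (x axis) of each tested gene of 4 lists: targets of HOXA9 or MEIS1 of other studies, HoxA activators, HoxA repressors and the TALE family with Pbxip1. Filled points passed an adjusted p of 0.05, red bars are list medians (0.21 for the targets) and the vertical spread within a list has no meaning.

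The genes whose pattern over the 6 libraries was nearest to that of Hoxa9 were found by the Euclidean distance of log2 CPM profiles centred on their own mean, among 10351 candidates. They were Slc48a1, a haem transporter (distance 0.0418), Sms, spermine synthase (0.0705), Idh3a, a subunit of mitochondrial isocitrate dehydrogenase (0.0868), R3hcc1 (0.0947) and Rpia, ribose-5-phosphate isomerase (0.099). Since they were chosen on the same libraries, changes like that of Hoxa9 follow from the choice and are given as a description. Their log2 changes in drug versus vehicle ran from -0.58 to -0.51, and all 5 were called lower, R3hcc1 not without drug replicate 2 (adjusted p = 0.0769). Esr1 was 64th, at 0.173, where the median candidate was at 0.735, Meis1 at 0.479 and Pbx3 at 0.702. Nearest to Meis1 were Rtcd1 (0.0951), Nfe2l1, a stress-response factor (0.0985), and Mcl1, a survival protein of the BCL2 family (0.113). Nearest to Pbx3 were Pdcd6ip, an endosomal sorting protein (0.0364), Atg9a, an autophagy protein (0.0368), and Tlk1, a kinase (0.0378), none of them called in any comparison.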

How the data were processed

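RNA-seq libraries of 6 cultures (3 groups, 2 each) were compared. The deposited table holds raw read counts per gene and a gene length in base pairs. Per the submitters' processing notes, STAR 2.7.0f, deepTools 3.0.2 and the mm10 build were used, and the labels refer to the table as featurecount. Strand, multiply mapped reads and the annotation's release: not given in the sources used here. The libraries held 11305666 to 16948697 counts.

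The filterByExpr filter on low counts kept 11283 of 23337 genes. TMM normalisation (a trimmed mean of log ratios) set the library scale. All groups were fitted together with edgeR 4.0.16 (R 4.3.3) without a replicate block, with 3 residual degrees of freedom. Calls rest on its quasi-likelihood test at 0.05, with p-values adjusted by Benjamini-Hochberg across the tested genes. SEs come from the F statistics. The groups share an estimate of spread for each gene, although replicates did not differ equally in them. The chi-square per degree of freedom between replicate counts, without Rn45s, was 1.83 with the drugs, 4.87 with vehicle and 7.70 at day 0. CPM is the count scaled to the TMM-adjusted library total, and CPM per kb divides it by the deposited length. For genes at 0, a floor of 3 counts was used. Intervals are exact 95% binomial ones and, like floors, cover counting error only. Nothing in the labels says that a replicate number marks a shared culture or day, and same-numbered deviations had correlations of 0.0808 (drug, vehicle), -0.199 (vehicle, day 0) and -0.0605 (drug, day 0), so the block is an alternative only. Other alternatives were size factors by the median of ratios, library totals, no filter, DESeq2 1.42.0, the compared groups only, Rn45s left out, and each library left out.

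The members and gene lists were chosen with earlier results of these data known. Genes named are the members, the detected transcripts of the HoxA cluster and the TALE family (with Pbxip1), Esr1, up to 4 called genes per list with the largest change from vehicle, and the nearest patterns (5 for Hoxa9, 3 each for Meis1 and Pbx3). Distances were taken on log2(CPM + 0.25). Genes named as the rest of a short count were chosen after their values were seen. Older symbols were matched through RefSeq synonyms (Mll1 for Kmt2a, Myst3 for Kat6a, Myst2 for Kat7, Sfpi1 for Spi1). Some genes of these families are not reported here. Promoter sequences are from RefSeq on GRCm38.p6, the assembly that mm10 shows.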

Additional observations from a re-analysis of the deposited data

How the results depend on the processing

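The calls of members in drug versus vehicle (1, Hoxa9) and drug versus day 0 (2, Hoxa9 and Meis1) were as many under all 14 alternatives. In vehicle versus day 0 the count of called members was 1, and it was 0 with DESeq2 and 0 with library totals. It ran from 0 to 1 when each library was left out in turn, with 0 without day 0 replicate 1 and 0 without vehicle replicate 2. Adjusted p values of Pbx3 under the alternatives were 0.338 or more in all 3 comparisons. The log2 ratio of Hoxa9 to Meis1, drug over vehicle, was -0.46 and ran from -0.49 to -0.43 with a library left out. The order of the members by level was the same with library totals and without division by length.

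Scaling by library totals moved the median of all genes by 0.12 (log2) in vehicle versus day 0, so that 1741 genes were called higher and 216 lower rather than 423 and 450. In drug versus day 0 it gave 3141 and 1321 rather than 2564 and 2394. Under it Hoxa9 stood at 0.08 in vehicle versus day 0 (adjusted p = 0.398). Over all genes, vehicle versus day 0 had 873 calls, against 491 with DESeq2, 1957 with library totals, 1664 with no filter, 527 with the compared groups only, 483 with the replicate block, and 351 to 2012 with a library left out (359 and 2012 without day 0 replicates 1 and 2, 351 without vehicle replicate 1, 530 and 535 without drug replicates 1 and 2). Drug versus vehicle had 3601, and 1833 and 2056 without drug replicates 1 and 2. Drug versus day 0 had 4958, and 2872 and 3279 without them.

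With the replicate block, drug versus vehicle had 2958 calls over all genes and 1 member, vehicle versus day 0 had 1 member, and drug versus day 0 had 2. With the day 0 numbers exchanged in the block, chosen after seeing the data, the counts over all genes were 4719, 2380 and 6046. For Hox genes at 0 in all libraries, a level of up to 3 counts over the 6 libraries cannot be told from 0.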
